A study of Mus musculus with 2 samples.

Results

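The regions described here are places where NFKB2 and ELF3 gave their strongest CUT&RUN signal at almost the same base. They were taken from 2 libraries of primary renal tubular epithelial cells from wild-type mouse kidney, treated with TNFα and IFNγ: 1 library was made with an antibody to NFKB2 and 1 with an antibody to ELF3, both in the same labelled batch. Every NFKB2 region on chromosomes 1 to 19 that overlapped an ELF3 region by 1 bp or more counted as shared. A shared region was called coinciding when its summit, the base covered by most fragments, lay 10 bp or less from the nearest ELF3 summit. This gave 2374 coinciding regions out of 13629 shared regions and 14060 NFKB2 regions on these chromosomes. Summit positions and overlap chose the members, so their small distances are a description and not a finding. There was no untreated group and 1 library per antibody, so nothing has a replicate check and no test was made; intervals are 95% intervals for counting error only.

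CUT&RUN uses a nuclease held by the antibody to release the DNA around a bound protein, and the summit is the caller's best estimate of where that protein sits. ELF3 is a transcription factor of the ETS family, whose members bind DNA around a GGAA core, and it is found in epithelia. NFKB2 is the precursor of a DNA-binding NF-κB subunit; its processing is the hallmark of the non-canonical NF-κB pathway, and the mature subunit often pairs with RELB at κB sites. TNFα is a classical activator of NF-κB, and IFNγ is an inflammatory cytokine made mainly by lymphocytes. The deposited lists carry sequence names of the mouse build GRCm39; mm10 is the build in the submitters' processing notes. Neither sequence nor genes of the files' build were used here, so regions are given by their deposited coordinates and no motif or gene is assigned to them.

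The libraries were of like depth, at 10.6 fragments per kb for NFKB2 and 10.1 for ELF3, as recovered from the peak scores, and their fragments averaged 129 and 121 bp. The background control behind both lists came out at the same depth, 10.2 fragments per kb in the NFKB2 list and 10.2 in the ELF3 list. A local background at the lowest level of a list is called the floor. The floor was found at 70.3% of NFKB2 and 70.3% of ELF3 regions on these chromosomes. Regions with fewer than 8 NFKB2 or 6 ELF3 fragments at the floor were not listed, so an unlisted place is not shown to be unbound.

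Coinciding regions made up 17.4% of shared NFKB2 regions (16.8 to 18.1) and 16.9% of all NFKB2 regions (16.3 to 17.5). Each of them met an ELF3 summit of its own, so that 2374 ELF3 regions were involved, 3.56% of the 66702 on these chromosomes. Over all shared regions the summits lay a median of 41 bp apart (quartiles 16 and 98 bp). The limit of 10 bp therefore took the closest part of a continuous distribution. Just inside it, 395 regions with summits 9 to 10 bp apart had a median of 18 NFKB2 and 51 ELF3 fragments. Just outside it, 327 regions with summits 11 to 12 bp apart had 18 and 44.

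Offsets within the coinciding regions were not spread evenly, because a single offset stood out. In 360 regions, 15.2% of the coinciding ones (13.7 to 16.7), NFKB2 and ELF3 had their summit at the same base. Each of the other 20 offsets within 10 bp, counted by side, was found in 81 to 125 regions, with a mean of 101. The mean number per offset fell away slowly beyond that, to 86.9 at 11 to 20 bp, 71.1 at 21 to 30 bp and 36.7 at 51 to 60 bp. Away from the shared base there was little sign of a side: the NFKB2 summit had the lower coordinate in 1041 regions and the higher coordinate in 973 (51.7% lower, 49.5 to 53.9).

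**Figure D1:**
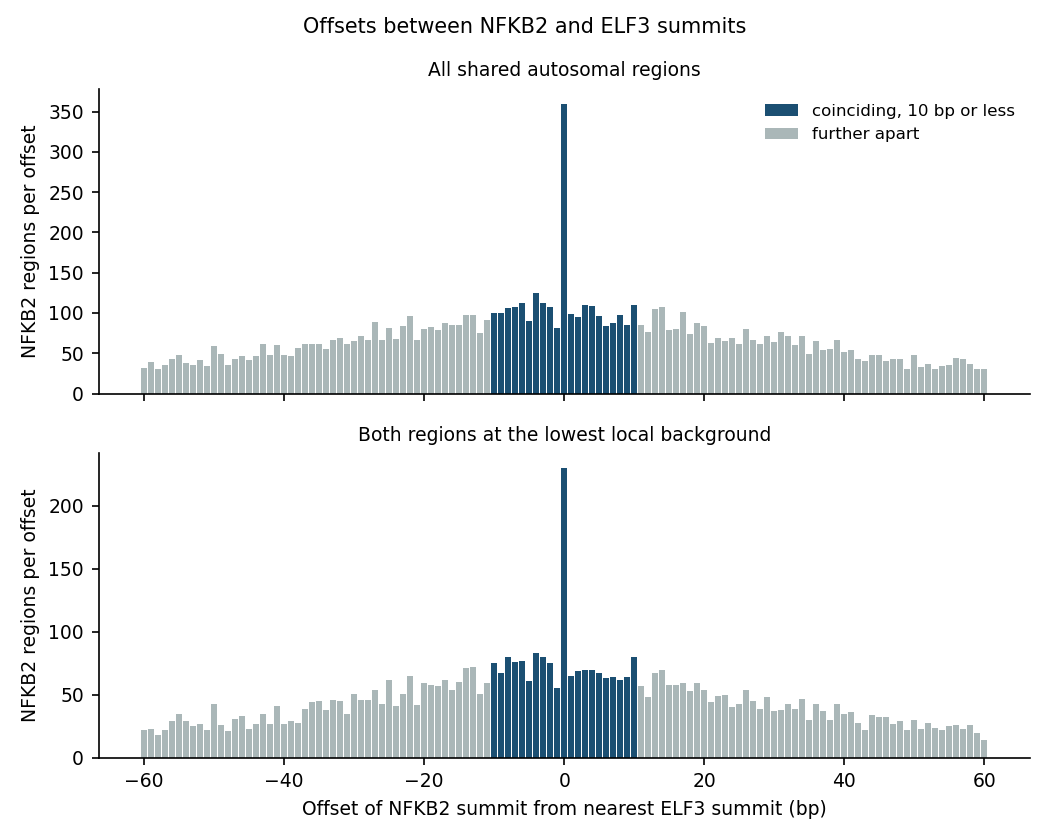
Number of shared NFKB2 regions (y axis) at each signed offset between the NFKB2 summit and the nearest ELF3 summit (x axis, bp, positive where NFKB2 has the higher coordinate), for all shared regions (top) and for those at the floor in both lists (bottom). The bar at an offset of 0 reaches 360 and 230 regions, while no other bar within 10 bp exceeds 125 and 83.

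The excess at a shared base was also counted at the floor and in well-covered regions. These are subsets of the same regions from the same 2 libraries, so the counts are a description and not separate evidence. With both regions at the floor, 230 regions had the same summit base, against 55 to 83 at each other offset within 10 bp. With 20 or more NFKB2 fragments the numbers were 211 against 29 to 52. Among coinciding regions at the floor, the same base was seen in 13.0% of those with 8 to 11 NFKB2 fragments (8.34 to 19.0), 9.01% with 12 to 14 (6.16 to 12.6), 11.7% with 15 to 19 (9.12 to 14.8), 17.8% with 20 to 29 (14.3 to 21.6) and 22.4% with 30 to 49 (15.4 to 30.7). Intervals of neighbouring classes overlapped, and those of 20 to 29 and 30 to 49 fragments lay above that of 12 to 14. None of the 360 regions with a common summit base had the same start and end in both lists. Identical edges were rare throughout, at 3 of 13629 shared regions, so that count cannot set the 360 apart from other regions. Both edges fell within 10 bp in 8 of the 360 (2.22%, 0.964 to 4.33). That was so in 0.844% of regions 1 to 10 bp apart (0.492 to 1.35) and 0.440% of all shared regions. At the floor it was 0 of 230 regions with a common summit base. The 360 held a median of 21 NFKB2 and 55 ELF3 fragments, while the 2014 regions with summits 1 to 10 bp apart held 18 and 48.

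Coinciding regions were more frequent where the signal was higher, with a level stretch in between. At the floor, 10.6% of shared regions with 8 to 11 NFKB2 fragments coincided (9.16 to 12.2), then 17.5% with 12 to 14 (15.8 to 19.3) and 21.4% with 15 to 19 (19.8 to 23.1). From 15 to 99 fragments the share did not move beyond its interval, with 22.8% at 20 to 29 fragments, 22.8% at 30 to 49 and 21.1% at 50 to 99 (14.3 to 29.4). Of the 12 regions with 100 or more fragments 7 coincided (58.3%, 27.7 to 84.8), an interval above those of the classes from 15 to 49. At any local background it was 48 of 71 such regions (67.6%, 55.5 to 78.2). The ELF3 signal gave a like course, with 13.1% coinciding at 6 to 24 ELF3 fragments (11.6 to 14.8), 18.2% at 25 to 49, 23.1% at 50 to 99 and 23.5% at 100 or more (19.1 to 28.3). A summit built on few fragments is placed less precisely, and the part of precision in these shares was not tested.

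**Figure D2:**
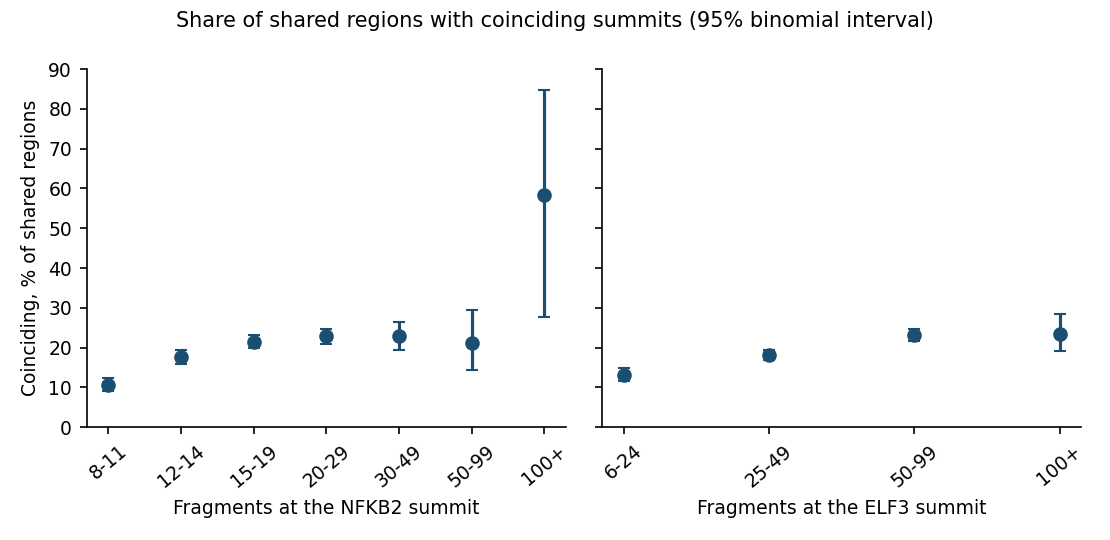
Share of shared regions at the floor whose summits coincide (y axis, %) by the number of fragments at the NFKB2 summit (left) and at the ELF3 summit (right); points are shares and bars 95% exact binomial intervals. The share climbs from 10.6% in the weakest NFKB2 class and stays between 21.1% and 22.8% from 15 to 99 fragments; at 100 or more it is 58.3% of 12 regions.

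The coinciding regions had moderate NFKB2 signal over stronger ELF3 signal. The median member held 18 NFKB2 fragments at its summit (quartiles 14 and 24) and 49 ELF3 fragments (32 and 69). Adjusted for depth, the NFKB2 over ELF3 ratio had a median of 0.379 (quartiles 0.269 and 0.539), against 0.389 over all shared regions. NFKB2 was more than 2-fold lower than ELF3 in 1667 members (70.2%, 68.3 to 72.1), where the background over all shared pairs was 68.1%. It was more than 2-fold higher in 16 members, 0.674% beside a background of 0.587%. It was higher by any amount in 120 members, 5.05% beside a background of 6.08%. These shares are close to those of the shared regions at large. Spearman's rho between the fragments of both libraries was 0.442 over the 2374 members and 0.432 over all shared regions, given as a description of regions that share libraries and local background.

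**Figure D3:**
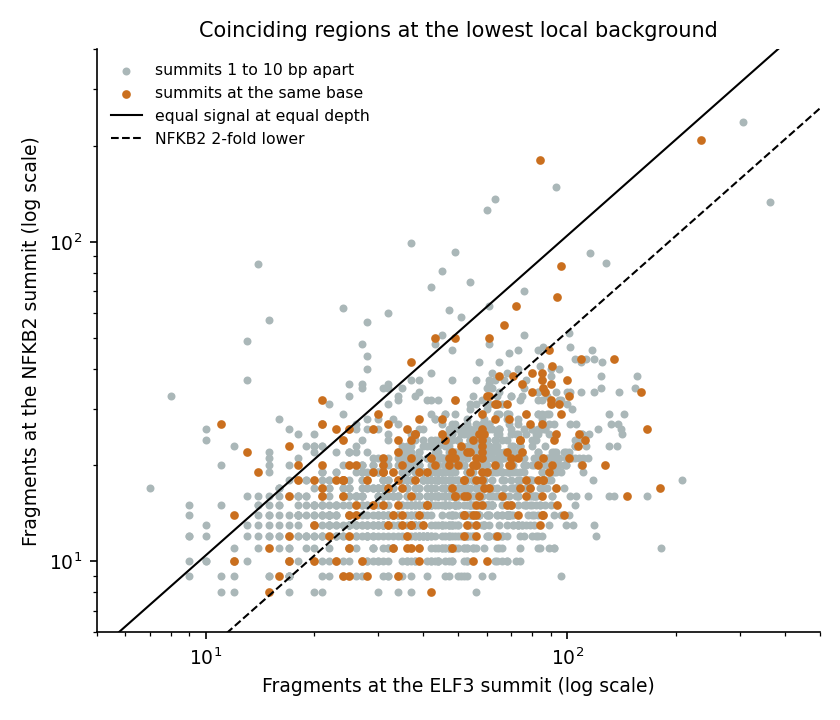
Fragments at the NFKB2 summit (y axis, log scale) against fragments at the ELF3 summit (x axis, log scale) for the 1633 coinciding regions at the floor in both lists, with the 230 of common summit base in orange. The solid line marks equal signal at equal depth and the dashed line NFKB2 2-fold lower than ELF3. Above the solid line lie 84 points (5.14%) and below the dashed one 1154 (70.7%). Over all 8591 shared regions at the floor the shares were close to these, at 6.38% and 67.0%.

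At like NFKB2 signal, coinciding regions resembled the shared regions with summits 11 to 100 bp apart, and both stood off from those with summits more than 100 bp apart. The comparison was made at the floor in 5 classes between 8 and 49 NFKB2 fragments. With 15 to 19 fragments, the NFKB2 region had a median width of 257 bp in 528 coinciding regions, 263 bp in 1533 regions 11 to 100 bp apart and 454 bp in 407 regions over 100 bp apart. With 20 to 29 fragments the medians were 327, 339 and 614 bp in the same order. Narrowness was thus shared with the intermediate regions, and a wide region leaves more room for separated summits, so the choice by distance fixes part of the difference from the last group. The ELF3 signal at the summit had its highest median in coinciding regions in each of the 5 classes. At 15 to 19 NFKB2 fragments it was 45 fragments in coinciding regions, 43 at 11 to 100 bp and 40 over 100 bp, and at 30 to 49 it was 69, 64 and 45. The NFKB2 over ELF3 ratio accordingly had its lowest median in coinciding regions, 0.356 beside 0.378 and 0.407 in the first of these classes and 0.487 beside 0.541 and 0.719 in the second. At 50 to 99 fragments the order of the ratios did not hold, with medians of 1.09 in 26 coinciding regions, 0.975 in 81 at 11 to 100 bp and 1.35 in 16 over 100 bp. Nor did the other orders hold there. In the same sequence of groups the NFKB2 width had medians of 1015, 784 and 1220.5 bp, and the ELF3 signal 50, 65 and 47.5 fragments. Quartile ranges overlapped in every class, and no test was made. The coinciding share was itself higher at higher ELF3 signal, so the choice by distance may also fix part of the ELF3 and ratio order. That part was not tested. ELF3 values are of the region that owns the nearest ELF3 summit. For summits over 100 bp apart it need not be the ELF3 region that overlaps, and another pairing was not tried for that group.

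**Figure D4:**
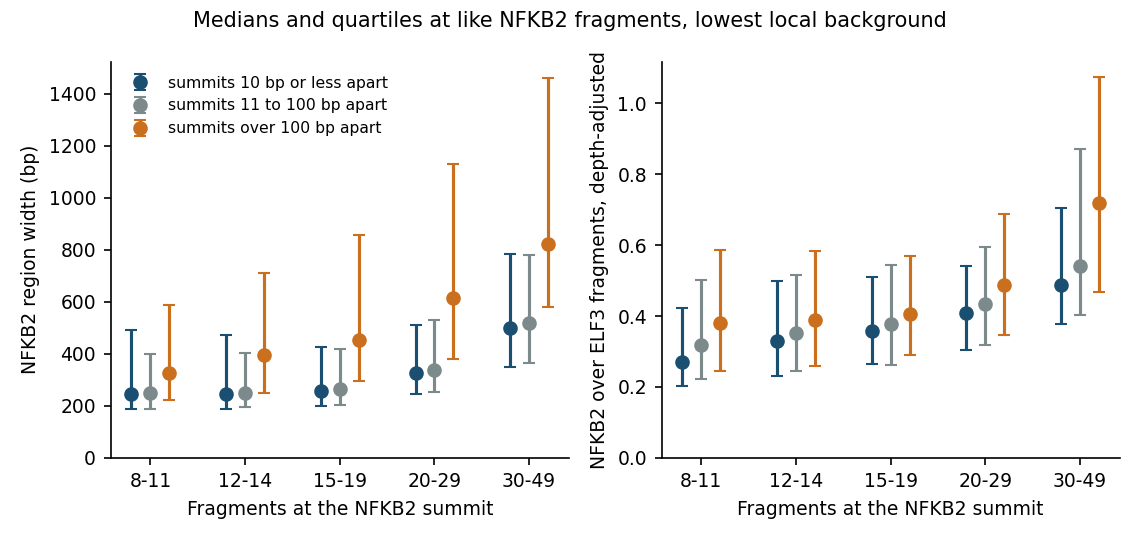
Median and quartiles (points and bars) of NFKB2 region width (left, bp) and of the depth-adjusted NFKB2 over ELF3 fragment ratio (right) by fragments at the NFKB2 summit, for regions at the floor with summits 10 bp or less apart (blue), 11 to 100 bp apart (grey) and over 100 bp apart (orange). The blue medians lie just below the grey ones and further below the orange ones in all 5 classes, with overlapping quartile bars.

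The edges of the regions followed the summits only loosely. The NFKB2 region lay wholly inside its ELF3 region in 2013 members (84.8%, 83.3 to 86.2) and the reverse held in 49. The share inside was 83.5% for summits 11 to 100 bp apart (82.7 to 84.3) and 80.0% for those over 100 bp apart (78.6 to 81.4). In that last group the ELF3 region of the nearest summit need not be the overlapping ELF3 region. The median member measured 313 bp for NFKB2 (quartiles 214 and 548) and 833 bp for ELF3 (495 and 1465). Both edges fell within 10 bp of each other in 25 members (1.05%, 0.683 to 1.55), in 32 of 7923 regions 11 to 100 bp apart (0.404%, 0.276 to 0.570) and in 3 of 3332 over 100 bp apart (0.0900%, 0.0186 to 0.263). At the floor that was 7 of 1633 members (0.429%, 0.173 to 0.881), so the other members with matching edges had a background above the floor in at least 1 list. Also at the floor, it was 18 of 5132 regions 11 to 100 bp apart (0.351%, 0.208 to 0.554). Members were thus close to that class there, and over 100 bp apart it was 1 of 1826. NFKB2 summits lay a median of 0.192 of the region's width from its middle in members, close to the 0.206 of regions 11 to 100 bp apart, beside 0.309 over 100 bp apart.

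A raised control signal went with coinciding summits at a small number of places. Where the local background reached 10 times the floor in either list, 30 of 46 shared regions coincided (65.2%, 49.8 to 78.6). At the floor in both lists it was 1633 of 8591 (19.0%, 18.2 to 19.9), and in between the share was lower, 14.5% below 2 times the floor and 13.1% from 2 to 5 times; from 5 to 10 times it was 10 of 28 regions. The 30 regions held a median of 511 NFKB2 and 1502 ELF3 fragments, but a median fold over local background, the authors' value, of 9.31 and 19.6. At the floor the median folds of members were 7.53 and 21.6. The part of the control signal in these 30 summits was not tested; without them 2344 members remain. The 4 members of highest −log10 q were among them. On chromosome 1, NFKB2 covered 24650624 to 24655256 and ELF3 24650622 to 24655259, with 1628 and 2249 fragments over a background 132 times the floor. On chromosome 2, NFKB2 covered 22477312 to 22480524, with 628 and 772 fragments. On chromosome 11 at 108902468 to 108902943 there were 1095 and 2756, and on chromosome 16 at 57211505 to 57212046 there were 905 and 2405. All 4 had NFKB2 and ELF3 summits at the same base and edges 2 to 22 bp apart.

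**Figure D5:**
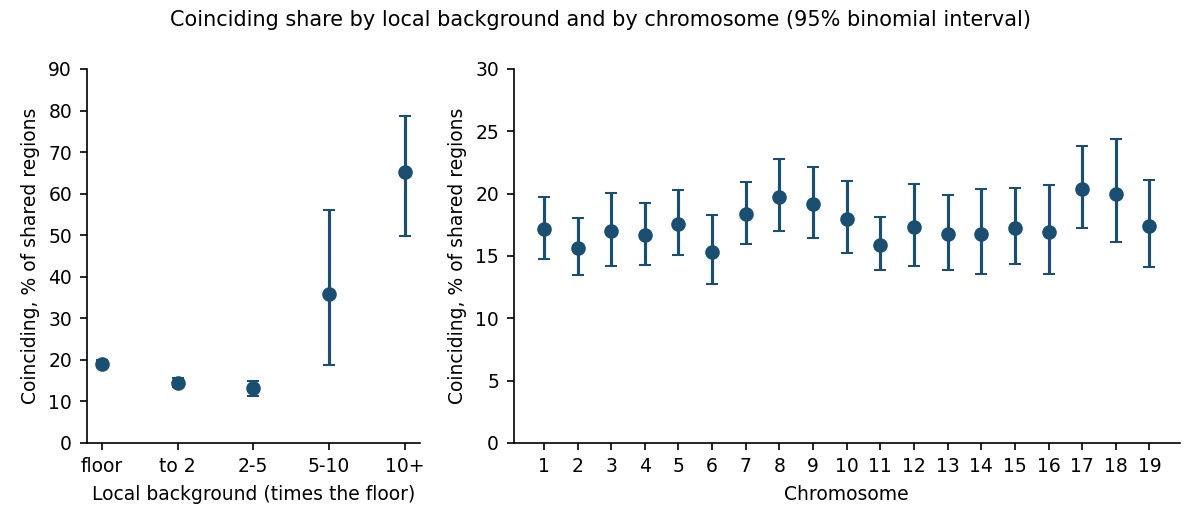
Share of shared regions whose summits coincide (y axes, %) by the higher local background of both lists in multiples of the floor (left) and by chromosome (right); bars are 95% exact binomial intervals. The share is 19.0% at the floor and 65.2% at 10 or more times the floor, and lies between 15.4% and 20.4% on every chromosome.

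Coinciding regions were spread over all 19 chromosomes. The lowest share was 15.4% on chromosome 6 (12.7 to 18.3) and the highest 20.4% on chromosome 17 (17.3 to 23.8), and their intervals overlapped. Chromosome 11 held most members, 185, followed by chromosome 7 with 179. The next member in either direction lay a median of 145 kb away, and 149 of 2374 (6.28%, 5.33 to 7.33) lay within 10 kb of another. The same spacing was not computed for other shared regions, so it is not shown to be particular to members.

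The members with most NFKB2 signal at the floor ran from near equality to ELF3 excess or NFKB2 excess. The first lay on chromosome 10, where NFKB2 covered 95913388 to 95913745 and ELF3 95913387 to 95913746. NFKB2 had 237 fragments (208 to 269) and ELF3 306 (273 to 342), a ratio of 0.742 (0.623 to 0.882), with summits 6 bp apart. Its edges differed by 1 bp on each side, so summit and extent matched in both libraries. On chromosome 4, 208 NFKB2 and 234 ELF3 fragments were found at 79921005 to 79922217, with 1 summit base in common. That ratio, 0.851 (0.703 to 1.03), was not apart from equal signal. On chromosome 15 at 86078982 to 86079502, ELF3 was the stronger, with 133 NFKB2 and 364 ELF3 fragments (ratio 0.350). NFKB2 was the stronger in the other three. On chromosome 8 at 71316053 to 71318990 it had 180 fragments and ELF3 84 (ratio 2.05, 1.58 to 2.69), on chromosome 7 at 99090549 to 99091319 136 and 63 (2.07, 1.52 to 2.83), and on chromosome 11 at 67979889 to 67983513 148 and 93 (1.52, 1.17 to 2.0). The chromosome 8 summits were at the same base, and the others 5 and 7 bp apart. Another region that ranked high in both lists was on chromosome 11 at 43572370 to 43572893, with 86 NFKB2 and 128 ELF3 fragments and edges within 12 bp.

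Coinciding summits did not require like signal. Of the 603 members at the floor with 20 or more NFKB2 fragments, 63 had the higher NFKB2 signal. The limit of 20 falls on the numerator of the ratio. Regions 11 to 100 bp apart at the floor had median ratios of 0.319 at 8 to 11 fragments and 0.541 at 30 to 49. The like count over all shared regions was not made, so the 63 are not shown to be particular to members. The ratio of the 603 ranged from 0.150 to 5.81. Because the ends of this range were picked by ratio, their intervals make no allowance for that choice. At the top, NFKB2 had 85 fragments and ELF3 14 on chromosome 2, where the NFKB2 region spanned 40445840 to 40447296 and the summits were 4 bp apart. ELF3 covered 40445944 to 40447175 there, so a weak ELF3 region spanned most of a strong NFKB2 one. The next were chromosome 8 at 95505748 to 95506132 with 33 and 8 fragments (ratio 3.95, 1.79 to 9.90), chromosome 11 at 54852332 to 54854121 with 57 and 15 (3.64) and chromosome 4 at 152429313 to 152430159 with 49 and 13 (3.61). These were 3, 5 and 10 bp apart at the summit. At the other end ELF3 led by far. On chromosome 13 at 5887322 to 5887748 there were 26 NFKB2 and 166 ELF3 fragments (ratio 0.150, 0.0952 to 0.228), and on chromosome 5 at 64269726 to 64270070 there were 20 and 127 (0.151). Both pairs had their summits at the same base. NFKB2 had 23 fragments and ELF3 137 on chromosome 9 at 4376312 to 4376538, and 23 and 131 on chromosome 10 at 40248283 to 40248614, with summits 3 and 4 bp apart.

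The widest members at the floor showed that summits can coincide within intervals of several kb. After the chromosome 11 region of 3625 bp named above came chromosome 17 at 34338278 to 34341793, with 23 NFKB2 and 58 ELF3 fragments and 1 summit base in common in an ELF3 region of 5608 bp. On chromosome 19, NFKB2 covered 5858987 to 5862409 and ELF3 5858926 to 5862472, with 37 and 63 fragments and summits 3 bp apart. On chromosome 11, NFKB2 covered 69299463 to 69302690 and ELF3 69299383 to 69302776, with 24 and 50 fragments and summits 7 bp apart. In the last 2 regions both edges also agreed within 61 to 86 bp.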

How the data were processed

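Peak lists of 1 NFKB2 and 1 ELF3 CUT&RUN library were used. Regions were called per library with MACS2, per the submitters' processing notes; version, control, aligner and filters: not given in the sources used here. Per the deposited files, the score is 10 times −log10 q cut to a whole number, the deposited fold is a ratio of summit signal to local background, and p and q stand as deposited −log10 values of each summit. Fragments at each summit and the local background were computed from fold and −log10 p under the caller's Poisson model, with −log10 p met within 0.01 (scaled up above 100) for all but 2 NFKB2 regions, 1 of them a coinciding region on chromosome 15. On 14000 regions simulated after each list, 100% of NFKB2 and 100% of ELF3 fragment numbers were recovered, and 100% of 6000 simulated summit pairs were classed rightly. The regions were simulated under the same Poisson model, so this checks the computation and not whether the caller's unstated settings follow that model. Simulated ELF3 regions were evenly spaced, so close neighbours were not covered. Each NFKB2 region was paired with the ELF3 region that owns the nearest summit, and ratios were divided by the depth ratio of 1.04. Shares have exact Clopper-Pearson intervals, fragments exact Poisson intervals and ratios exact binomial ones.

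Of 31360 gene starts in the RefSeq tables at hand, 1541 had an ELF3 summit within 500 bp as they stand. After the best single shift of each chromosome it was 5269, with a better shift on 17 of 18 chromosomes. Chromosome 18 had 0 gene starts and was not counted. The best shift was picked for the highest count among shifts of up to 400 kb, so it could not fall below the unshifted count. These tables are of GRCm38.p6, while the deposited lists carry sequence names of GRCm39. No gene, promoter or motif was therefore joined, and the planned shares at gene starts, motif shares and gene lists were not run. Named regions are, at the floor, the 6 with most NFKB2 fragments, the 4 of highest and 4 of lowest ratio with 20 or more NFKB2 fragments, the 4 of best rank in both lists and the 4 widest, and the 4 of highest −log10 q at any background. The members and all rules were chosen with earlier results of these data known. Python 3.11.15, pandas 2.3.3 and scipy 1.17.1 were used.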

Additional observations from a re-analysis of the deposited data

How the results depend on the processing

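The number of coinciding regions, 2374, and their share of shared regions, 17.4%, followed the summit limit by construction: 360 and 2.64% at the same base, 1385 and 10.2% at 5 bp or less, 4112 and 30.2% at 20 bp, 7675 and 56.3% at 50 bp. With −log10 q of 10 or more in both lists 1121 remained, and the share was 21.7%; with 5 or more it was 19.9%, at the floor 19.0%, and with 20 or 50 and more NFKB2 fragments 21.7% and 31.9%. The same-base count, 360, was 225 with −log10 q of 10 or more and 230 at the floor, as fewer regions enter. The median ratio, 0.379, was 0.396 without depth correction, 0.357 with depth taken from bases covered and 0.406 at the same base; NFKB2 was more than 2-fold lower in 66.8% and 73.9% under the first 2 of these. The median NFKB2 width, 313 bp, was 377 bp at the same base and 298 bp at the floor. In 22 of 45 alternatives these values stayed within 1.5 times (counts) or their 95% interval. The depth from bases covered, a background under 10 times the floor, and all settings for the same-base and 2-fold values were chosen after the data were seen. No direction turned at the 22 named regions. Alternatives for gene starts, motifs and gene lists were not run. No paired analysis was possible because each antibody has 1 library. Summits of few fragments are the least exact.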

Other observations

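Outside chromosomes 1 to 19, the X chromosome had 18 coinciding regions among 115 shared ones (15.7%, 9.55 to 23.6), with a median of 16.5 NFKB2 and 33 ELF3 fragments and a median ratio of 0.444. On the Y chromosome 0 of 5 shared regions coincided. On unplaced sequences 11 of 19 shared regions coincided (57.9%, 33.5 to 79.7), with medians of 165 NFKB2 and 113 ELF3 fragments and a ratio of 1.42.

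Most coinciding regions had their ELF3 region to themselves: in 59 of 2374 the same ELF3 region also owned the summit nearest to a further NFKB2 region, with at most 3 NFKB2 regions to 1 ELF3 summit. The gap from a coinciding region to the next NFKB2 region of any kind had a median of 21.9 kb, close to the 22.1 kb of regions with summits 11 to 100 bp apart and the 20.2 kb of all shared regions; it was 15.2 kb for regions with summits more than 100 bp apart.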
